A study of Mus musculus with 12 samples.

Results

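The 43 genes described here are cell cycle and DNA replication genes. They were taken by symbol from the 30630 mouse genes listed for each tumor, and all 43 were found. The 16 G1/S and S phase genes start the cycle or copy DNA, and the 27 G2 and mitosis genes condense, attach and separate the chromosomes. All 43 passed the filter of at least 0.1 FPKM in at least 6 tumors, as did 19018 genes in total.

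The tumors were grown from CT-26, a mouse colon carcinoma cell line, injected under the skin of the right flank of male BALB/c mice that were 4 to 6 weeks old when bought. Control mice did not swim, and mice of the swimming group swam for 3 weeks. RNA was sequenced after removal of ribosomal RNA from 6 control and 6 swimming tumors, 1 per mouse, out of 10 mice per group. Neither group carried a named genetic change or drug treatment. The model is a single cell line under the skin, not a tumor in the colon, and each sample is a piece of whole tumor that also holds host cells. Values are FPKM, a read number divided by gene length and sequencing depth, so levels can be compared between genes as well as between tumors. Fold changes are swimming minus control on log2(FPKM + 1), a scale that makes differences of genes near or below 1 FPKM look smaller.

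A dividing cell passes a commitment point in G1, where cyclin D and cyclin E with their kinases release the E2F transcription factors. E2F factors switch on genes for loading the MCM helicase on replication origins and for making DNA precursors. Later in the cycle a second group of promoters becomes active through the B-MYB-FOXM1 complex, at DNA elements known as CHR, and through NF-Y, at CCAAT boxes. Their products include cyclin B, the mitotic kinases, kinesins and the spindle checkpoint. Ki-67, the protein of Mki67, is the usual stain for dividing cells in tumor sections. In RNA from whole tumor tissue, more dividing cells and more RNA of these genes per cell cannot be told apart.

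The labelled cell type was checked against markers. Of 8 epithelial and colon markers, 6 were below 1 FPKM on average, among them Epcam with 0 to 0.0873 FPKM in control and 0 to 0.177 FPKM in swimming tumors. Krt8, an epithelial keratin, averaged 17.6 FPKM, but a single tumor, control 4, had 129 FPKM. The mesenchymal gene Vim averaged 567 FPKM. Krt18, the keratin partner of Krt8, was expressed in every tumor, at 7.57 to 14.8 FPKM in control and 5.89 to 12.3 FPKM in swimming tumors. The epithelial and colon genes Epcam, Cdh1, Vil1, Cdx2, Krt19 and Cldn7 were thus at or near 0, while both keratin genes Krt8 and Krt18 were expressed.

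Of the 43 genes, none differed between the groups after adjustment, and most fold changes were small and above 0. The median log2 fold change was 0.15 for the 27 G2 and mitosis genes and 0.06 for the 16 G1/S and S phase genes, beside 0.004 for all 19018 genes tested, and the difference between the 2 gene groups was not tested. The fold change was above 0 in 25 of 27 G2 and mitosis genes (92.6%), 11 of 16 G1/S and S phase genes (68.8%) and 51.7% of all genes. None of the 43 had an adjusted p below 0.05 in limma, where 0 of all genes (0%) did, and the smallest adjusted p among the 43 was 0.889. At an unadjusted p below 0.05, 3 of the 43 were higher in the swimming tumors (6.98%), Mki67, Bub1 and Rrm2, beside 3.11% of all genes. At the same threshold 0 of the 43 were lower, beside 2.46% of all genes. Quantile normalization and TMM scaling (by a trimmed mean) each gave 4 in place of 3, with Cenpa in addition. In these fits 3.11% and 2.98% of all genes were higher. The groups overlapped for all 43 genes, and they did not overlap for 0.147% of all genes.

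The count of 3 depended on single tumors. Leaving out swimming 1 raised it to 18, beside 4.54% of all genes higher at this threshold. Leaving out control 1 raised it to 6, beside 3.7% of all genes. The count was 5 without swimming 2 or without swimming 6, beside 2.98% and 2.7% of all genes. It was 1 without control 4, swimming 4 or swimming 5, beside 2.67%, 2.67% and 2.31% of all genes. The median of the G2 and mitosis genes stayed between 0.10 and 0.21 and that of the G1/S and S phase genes between 0.01 and 0.09 when each tumor was left out in turn.

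**Figure D1:**
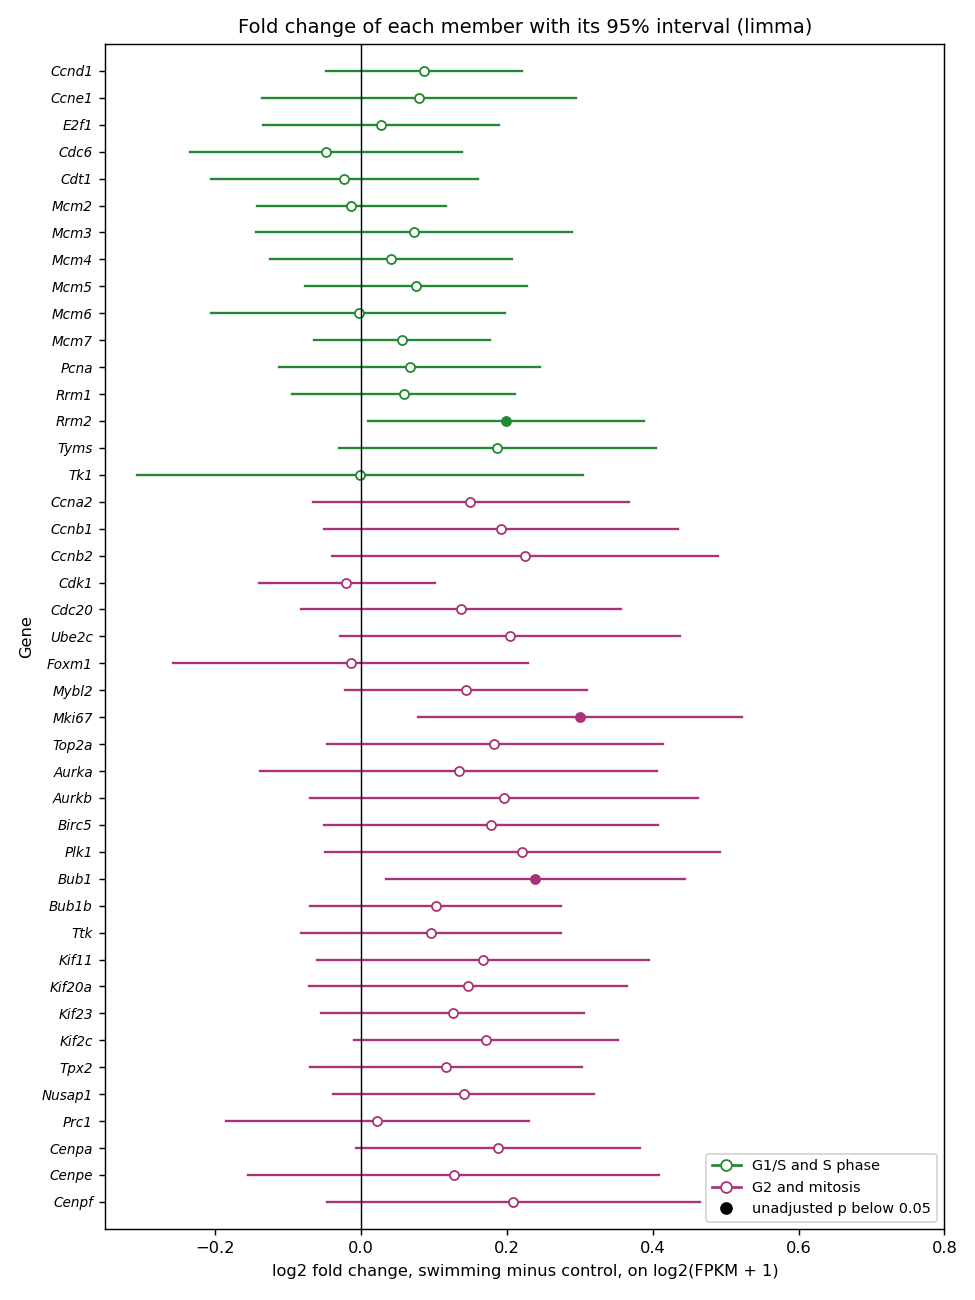
Log2 fold change of each of the 43 genes, swimming minus control on log2(FPKM + 1), as a point with its 95% interval from limma, for 6 control and 6 swimming tumors. Filled points mark the 3 genes with an unadjusted p below 0.05, and the intervals of the other 40 genes include 0.

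**Figure D2:**
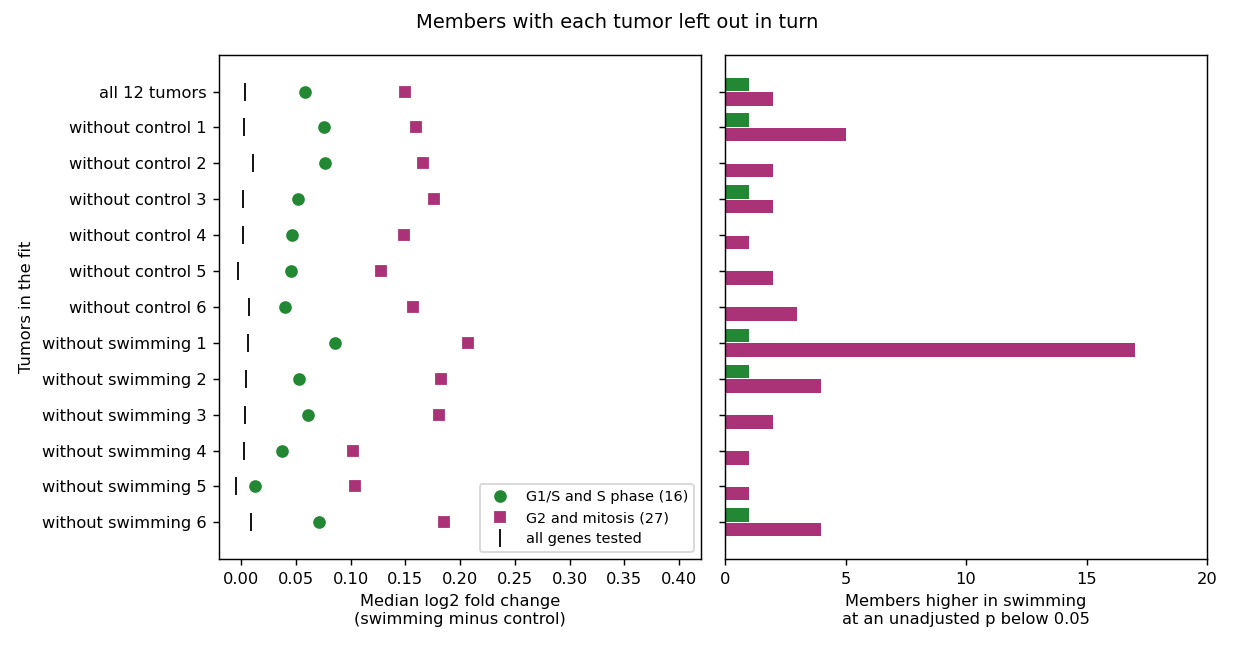
Median log2 fold change of each gene group (left) and number of genes higher in the swimming tumors at an unadjusted p below 0.05 (right) with all 12 tumors and with each tumor left out in turn. Both medians stay above that of all genes tested, and without swimming 1 the number of G2 and mitosis genes rises from 2 to 17. Without swimming 1, 4.54% of all genes are higher at this threshold, beside 3.11% with all 12 tumors.

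The 43 genes varied together from tumor to tumor, the G2 and mitosis genes most closely. Summed over the 27 G2 and mitosis genes, the level was 772, 726, 756, 659, 640 and 717 FPKM in control 1 to 6. In swimming 1 to 6 it was 666, 739, 784, 959, 940 and 724 FPKM. Swimming 4 and 5 stood above every control tumor, and the other 4 swimming tumors lay at 666 to 784 FPKM, close to the range of the controls. The mean was 711 ± 52.5 FPKM in control and 802 ± 120 FPKM in swimming tumors (SD, n = 6 each).

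The summed level of the 16 G1/S and S phase genes was 832, 870, 836, 761, 810 and 758 FPKM in control 1 to 6 and 766, 833, 842, 888, 970 and 816 FPKM in swimming 1 to 6. The highest were again swimming 4 and 5, and the other swimming tumors lay inside the range of the controls. Divided by this level, the G2 and mitosis level was 1.08 in swimming 4, and 0.789 to 0.969 in the other 11 tumors.

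**Figure D3:**
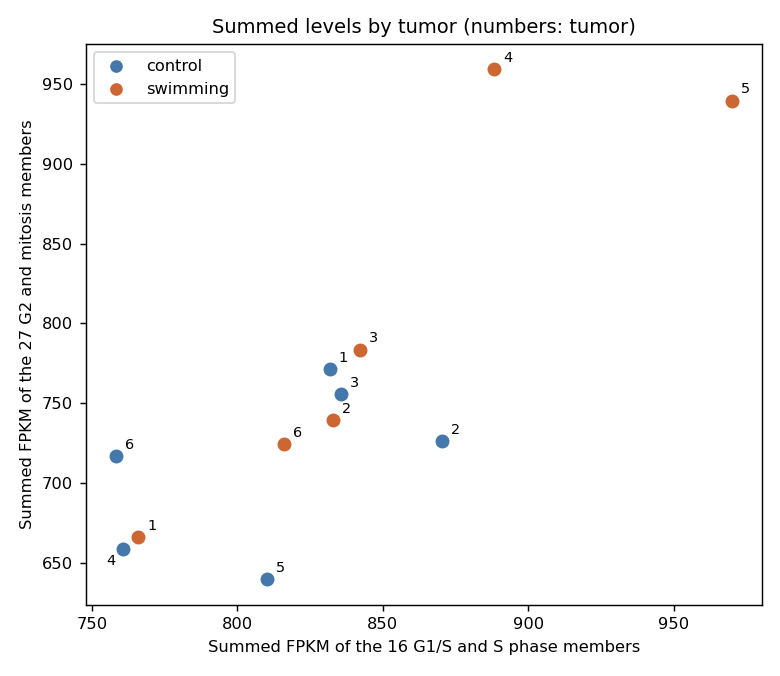
Summed FPKM of the 16 G1/S and S phase genes (horizontal) and of the 27 G2 and mitosis genes (vertical) in each tumor, with the tumor number beside each point. Swimming 4 and 5 sit at the upper right at 959 and 940 FPKM of G2 and mitosis genes, and the highest control tumor is at 772 FPKM.

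The order of the tumors was examined gene by gene after these values were seen, so the counts are a description. Swimming 4 and swimming 5 were both above every control tumor for 24 of the 27 G2 and mitosis genes (88.9%), the exceptions being Cdk1, Foxm1 and Prc1. The same held for 7 of 16 G1/S and S phase genes (43.8%) and for 7.47% of all genes tested. Swimming 4 had the highest value of all tumors for 17 of the G2 and mitosis genes and 1 of the G1/S and S phase genes, and swimming 5 for 8 and 12. Of all 19018 genes tested, swimming 4 was highest for 1374 and swimming 5 for 3078, the most of any tumor. Swimming 4 was above every control for 14.3% of all genes and swimming 5 for 22.6%. Swimming 1 was above every control tumor for 0 of the 43 genes, beside 8.75% of all genes. It was below the control median for 22 of 27 G2 and mitosis genes and 15 of 16 G1/S and S phase genes, beside 54.6% of all genes.

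Across the 12 tumors, where both genes of a pair are read from the same library at its depth, the median Pearson r of log2 values was 0.785 over pairs of G2 and mitosis genes. It was 0.596 over pairs of G1/S and S phase genes, 0.538 over pairs of 1 gene from each group and 0.019 over all pairs of genes tested. After subtraction of the group means the first 3 values were 0.746, 0.599 and 0.551, so the genes varied together also within the groups. The closest pair was Ccnb2, a B cyclin, with Aurkb, the kinase of the chromosomal passenger complex (r = 0.977). Foxm1, a transcription factor of mitotic genes, varied apart from the rest, with a median r of 0.0959 with the other G2 and mitosis genes. Pcna, the sliding clamp of DNA polymerase, likewise had a median r of 0.181 with the other G1/S and S phase genes.

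**Figure D4:**
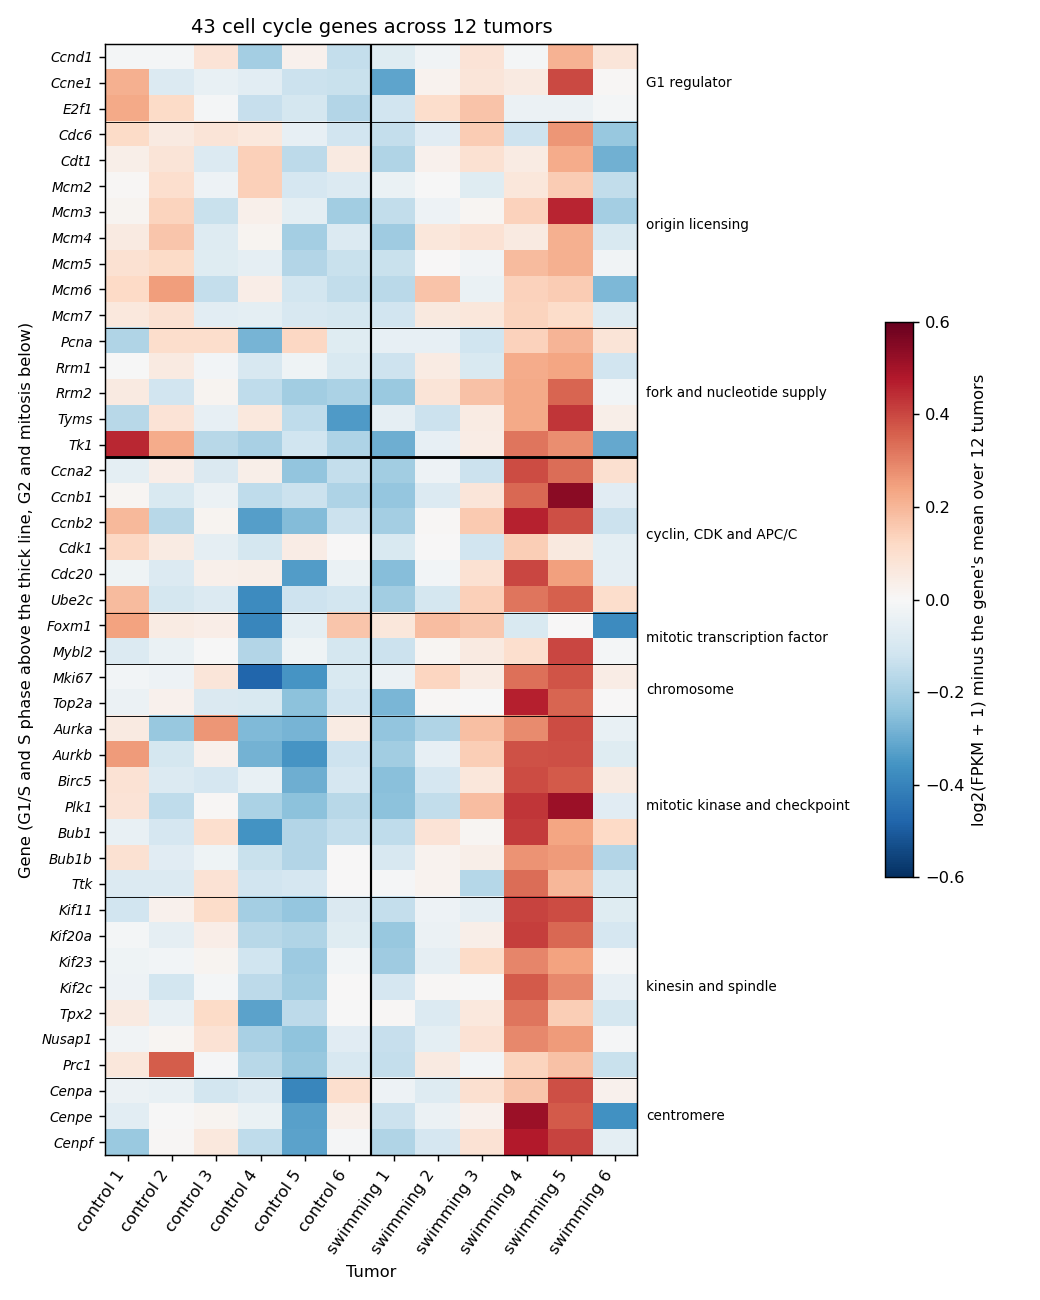
Log2(FPKM + 1) of each of the 43 genes minus its mean over the 12 tumors, with genes in rows by role and tumors in columns, on a color scale from -0.6 (blue) to 0.6 (red). The columns of swimming 4 and 5 are red for most G2 and mitosis genes below the thick line, where both tumors exceed every control for 24 of 27 genes.

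The part of promoters in how the 2 groups varied was not tested, and promoters are shown here for selected genes. They are Mki67 and Bub1, with the smallest p among the mitosis genes, Ccnb1, a gene of cyclin B, Cdc20, the most abundant mitosis gene, Rrm2, with the smallest p among the S phase genes, and Pcna, which varied apart from them. Each is the 250 bases before the start of the RefSeq gene on GRCm38.p6, 5′ to 3′ on the gene's strand. Mki67 is at chr7:135716380-135716629, Bub1 at chr2:127831860-127832109, Ccnb1 at chr13:100786487-100786736, Cdc20 at chr4:118437344-118437593 and Pcna at chr2:132253181-132253430, all on the minus strand, and Rrm2 at chr12:24708004-24708253 on the plus strand. Capitals mark matches on either strand. The motif CCAAT stands for the CCAAT box. The letters TTTGAA and also the letters TTTAAA stand for the CHR. For E2F sites the letters TTCCCGC were searched, as well as TTGGCGC, then the variant TTCGCGC, and lastly the variant TTGCCGC.
Mki67: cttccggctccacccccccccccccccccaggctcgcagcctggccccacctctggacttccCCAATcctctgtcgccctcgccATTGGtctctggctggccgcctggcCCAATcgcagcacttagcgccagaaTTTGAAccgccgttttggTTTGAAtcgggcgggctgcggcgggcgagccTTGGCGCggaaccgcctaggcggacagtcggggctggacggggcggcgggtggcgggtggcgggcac
Bub1: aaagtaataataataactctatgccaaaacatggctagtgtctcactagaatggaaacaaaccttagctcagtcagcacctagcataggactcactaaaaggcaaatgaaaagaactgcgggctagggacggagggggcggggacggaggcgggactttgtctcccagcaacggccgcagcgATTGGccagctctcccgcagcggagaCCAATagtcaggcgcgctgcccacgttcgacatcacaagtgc
Ccnb1: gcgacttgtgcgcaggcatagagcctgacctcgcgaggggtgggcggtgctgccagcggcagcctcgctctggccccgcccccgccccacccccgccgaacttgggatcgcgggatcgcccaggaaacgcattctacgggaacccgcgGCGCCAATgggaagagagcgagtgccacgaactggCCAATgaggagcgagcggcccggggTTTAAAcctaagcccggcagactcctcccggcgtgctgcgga
Cdc20: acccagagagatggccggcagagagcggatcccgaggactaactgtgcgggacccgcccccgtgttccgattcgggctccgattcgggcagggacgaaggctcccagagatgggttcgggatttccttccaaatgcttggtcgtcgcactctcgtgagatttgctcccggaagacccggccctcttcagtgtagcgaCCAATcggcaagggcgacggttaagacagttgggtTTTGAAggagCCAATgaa
Rrm2: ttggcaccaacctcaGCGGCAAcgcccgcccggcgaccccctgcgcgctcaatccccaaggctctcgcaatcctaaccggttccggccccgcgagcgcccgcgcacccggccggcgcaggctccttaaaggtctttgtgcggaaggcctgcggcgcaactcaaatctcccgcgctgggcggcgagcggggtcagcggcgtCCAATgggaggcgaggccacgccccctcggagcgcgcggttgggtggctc
Pcna: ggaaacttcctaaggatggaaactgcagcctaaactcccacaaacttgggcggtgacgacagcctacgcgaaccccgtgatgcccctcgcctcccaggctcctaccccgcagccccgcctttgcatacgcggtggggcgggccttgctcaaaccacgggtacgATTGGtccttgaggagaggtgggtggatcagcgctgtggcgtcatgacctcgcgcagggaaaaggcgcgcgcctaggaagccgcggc

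Mki67 holds TTTGAA at 2 positions beside 3 CCAAT boxes and 1 E2F match, and Ccnb1 holds TTTAAA with 2 CCAAT boxes, of which 1 shares bases with the E2F match GCGCCAA. Cdc20 holds TTTGAA with 2 CCAAT boxes. Bub1 holds 2 CCAAT boxes and neither TTTGAA nor TTTAAA nor E2F letters in this window. Rrm2 holds 1 CCAAT box and 1 E2F match, and Pcna 1 CCAAT box. Promoters were found for 22 of the 27 G2 and mitosis genes (23 promoters) and 14 of the 16 G1/S and S phase genes (15 promoters). Promoters of Ccna2, Aurkb, Kif20a, Foxm1, Tpx2, Ccnd1 and Mcm4 were not analysed here. TTTGAA or TTTAAA occurred in 60.9% of the G2 and mitosis promoters, 26.7% of the G1/S and S phase promoters and 25.2% of all 32851 promoters of this length. A CCAAT box occurred in 82.6%, 60.0% and 33.8%, and both elements together in 52.2%, 13.3% and 8.78%. E2F letters occurred in 13.0%, 46.7% and 7.89%, most often before the G1/S and S phase genes. These are matches of letters and were not tested for binding.

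Among the cyclins and the machinery of the anaphase-promoting complex, 5 of 6 genes had a fold change above 0, with a median of 0.17. Ccnb1, whose product with CDK1 drives entry into mitosis, was between 20.4 and 23.5 FPKM in control tumors with a median of 21.5, and between 19.7 and 34.3 FPKM in swimming tumors with a median of 23.4. The controls lay close together, swimming 4 and 5 at 29.9 and 34.3 FPKM were far above them, and swimming 1 was the lowest of all 12. Ccnb1 had a log2 fold change of 0.19 ± 0.11 (SE; limma p = 0.111, exact permutation p = 0.173, adjusted p = 0.899). It was 0.10 without swimming 5 and 0.26 without swimming 1. Ccnb1 shares 99.2% of its sequence over 1287 bases with the pseudogene Ccnb1-ps, listed at 1.38 FPKM on average, so its reads may be divided between them.

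Cdc20, an activator of the anaphase-promoting complex, was the most abundant G2 and mitosis gene. It was between 66.0 and 85.4 FPKM in control tumors (median 81.6) and between 69.6 and 110.5 FPKM in swimming tumors (median 85.6). The groups overlapped, with 3 swimming tumors above the highest control. Its log2 fold change was 0.14 ± 0.10 (SE; limma p = 0.2, exact permutation p = 0.236, adjusted p = 0.917). Leaving out swimming 4 gave 0.07 and leaving out swimming 1 gave 0.20. Ccnb2 had the largest fold change of this role, 0.22 (exact permutation p = 0.13), and Ube2c, the ubiquitin-conjugating enzyme of the same complex, had 0.20 (exact permutation p = 0.106). Cdk1, the kinase partner of cyclin B, was the least variable of the 43 genes, with a coefficient of variation of 6.36% over 12 tumors and a log2 fold change of -0.02 (95% interval -0.14 to 0.10).

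Mki67 had the largest difference of the 43 genes. It was between 30.7 and 45.5 FPKM in control tumors with a median of 41.3, and between 42.0 and 56.4 FPKM in swimming tumors with a median of 46.0. All 6 swimming tumors were above the control median and 3 above every control, while control 4 and 5, at 30.7 and 33.5 FPKM, were the lowest tumors. The mean was 39.2 ± 5.77 FPKM in control and 48.3 ± 5.85 FPKM in swimming tumors (SD, n = 6 each). The log2 fold change of Mki67 was 0.30 ± 0.10 (SE; 95% interval 0.08 to 0.52; limma p = 0.0119, exact permutation p = 0.0216, adjusted p = 0.889). Its unadjusted p was below 0.05 in each of 22 alternative settings, with p between 0.00599 and 0.0472. Top2a, the topoisomerase that untangles sister chromatids, had a log2 fold change of 0.18 (exact permutation p = 0.165).

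All 7 mitotic kinase and checkpoint genes had a fold change above 0, with a median of 0.18. Bub1, a kinase of the spindle checkpoint, was between 12.8 and 17.9 FPKM in control tumors (median 15.2) and between 14.9 and 22.6 FPKM in swimming tumors (median 17.9). Control 4 was the lowest tumor and swimming 4 the highest, and 3 swimming tumors were above every control. For Bub1 the log2 fold change was 0.24 ± 0.10 (SE; limma p = 0.0251, exact permutation p = 0.0368, adjusted p = 0.889). Without control 4, swimming 4 or swimming 5 the limma p of Bub1 was 0.0599, 0.0588 and 0.0529.

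Ttk, another checkpoint kinase and the weakest of the G2 and mitosis genes, was between 7.12 and 8.34 FPKM in control tumors (median 7.30) and between 6.80 and 10.1 FPKM in swimming tumors (median 7.84). Swimming 4 and 5 were above every control, and swimming 3 was the lowest of all. Its log2 fold change was 0.10 ± 0.08 (SE; limma p = 0.265, exact permutation p = 0.266, adjusted p = 0.927), and 0.04 without swimming 4. Plk1, the polo kinase of mitotic entry, had the largest fold change among the other kinases, 0.22 (exact permutation p = 0.147). For Aurka, Aurkb, Birc5 and Bub1b it lay between 0.10 and 0.20.

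The 7 kinesin and spindle genes Kif11, Kif20a, Kif23, Kif2c, Tpx2, Nusap1 and Prc1 all had a fold change above 0, with a median of 0.14. The largest was 0.17 for Kif2c, a kinesin that depolymerizes microtubules (exact permutation p = 0.0758), and the smallest 0.02 for Prc1, which bundles microtubules of the midzone. The exons of Kif20a, Prc1 and Nusap1 overlap those of Cdc23, Rccd1 and Oip5 on the opposite strand, and those of Ube2c overlap the skeletal muscle gene Tnnc2 over 592 bases. Without a stated use of strand, reads of such pairs cannot be told apart.

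Of the centromere genes, Cenpa, the histone H3 variant of centromeric chromatin, was between 10.2 and 14.7 FPKM in control tumors (median 13.1) and between 12.9 and 18.2 FPKM in swimming tumors (median 14.3). Control 5 was the lowest tumor, and swimming 4 and 5 were above every control. Its log2 fold change was 0.19 ± 0.09 (SE; limma p = 0.0575, exact permutation p = 0.0628, adjusted p = 0.889). Cenpe and Cenpf, which encode kinetochore proteins, had log2 fold changes of 0.13 and 0.21. Of the transcription factors, Mybl2, which encodes B-MYB, had 0.14 (exact permutation p = 0.0606) and Foxm1 had -0.01 (exact permutation p = 0.898). The sign of Foxm1 was not stable, since it was positive in 5 of 22 alternative settings.

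**Figure D5:**
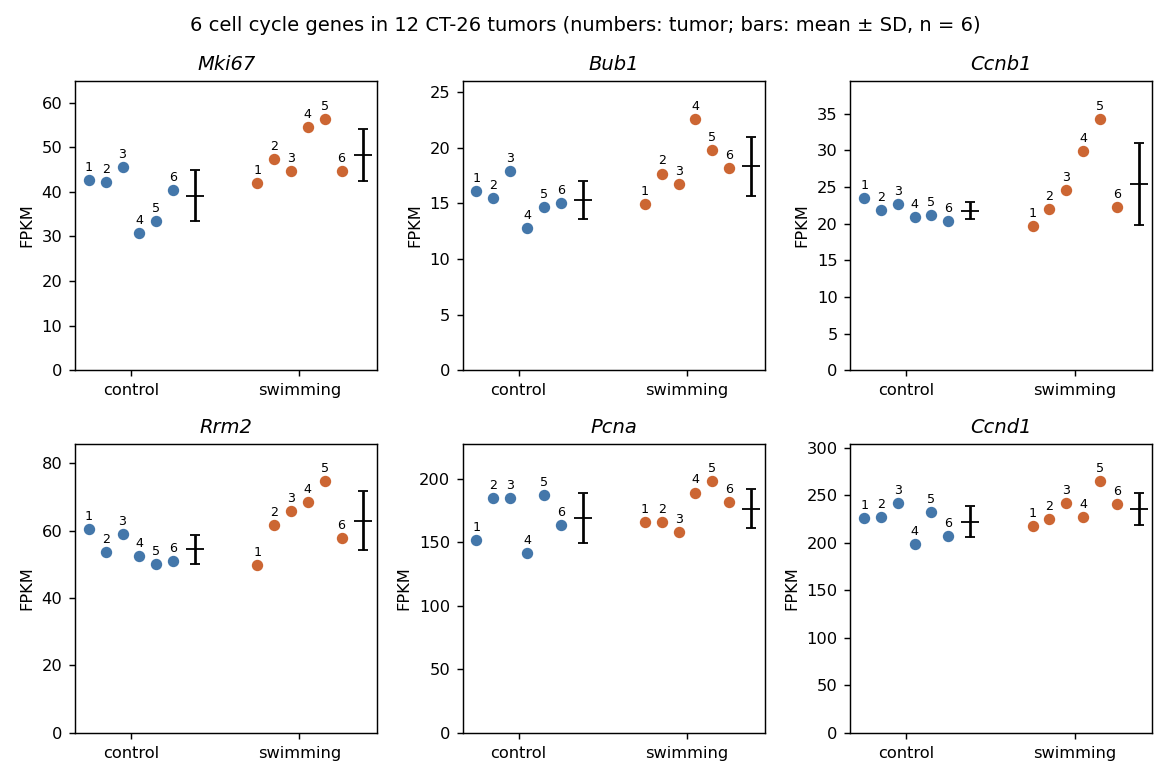
FPKM of 6 genes in each of the 12 tumors, with the tumor number above each point and the mean ± SD of each group (n = 6) as a black bar. Mki67 and Bub1 are highest in swimming 4 and 5, as are Ccnb1 and Rrm2, while for Pcna and Ccnd1 the groups largely overlap.

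The 3 G1 regulators had fold changes above 0 and below 0.10. Ccnd1, the gene of cyclin D1, was the most abundant of the 43 genes, between 198.5 and 242 FPKM in control tumors (median 227) and between 218 and 265 FPKM in swimming tumors (median 234). Only swimming 5 was above every control. Ccnd1 had a log2 fold change of 0.09 ± 0.06 (SE; limma p = 0.188, exact permutation p = 0.195, adjusted p = 0.917), and 0.05 without swimming 5. Ccne1, the gene of cyclin E1, was between 10.6 and 13.8 FPKM in control tumors (median 11.1) and between 9.24 and 15.8 FPKM in swimming tumors (median 12.1). Swimming 5 was the highest tumor and swimming 1 the lowest. The log2 fold change of Ccne1 was 0.08 (95% interval -0.14 to 0.30) and 0.009 without swimming 5, and that of E2f1, an E2F activator, was 0.03.

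Of the 8 origin licensing genes, 4 had a fold change above 0 and 4 below, with a median of 0.02. Cdc6, which loads the MCM helicase with CDT1, was the weakest of the 43 genes, between 5.19 and 6.25 FPKM in control tumors (median 5.99) and between 4.73 and 7.07 FPKM in swimming tumors (median 5.28). Swimming 6 was the lowest and swimming 5 the highest tumor. Its log2 fold change was -0.05 ± 0.09 (SE; limma p = 0.587, exact permutation p = 0.591, adjusted p = 0.968), between -0.11 without swimming 5 and -0.007 without swimming 6. For Cdt1 and the helicase genes Mcm2 to Mcm7 it lay between -0.02 and 0.08. The sign turned in at least 1 alternative setting for Cdt1, Mcm2, Mcm3 and Mcm6. The intervals of all 8 included 0, and the widest, that of Mcm3, reached from -0.14 to 0.29. Mcm7 shares exonic bases with Cops6 and Ap4m1 on the opposite strand.

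The genes of the replication fork and of nucleotide supply held the largest S phase differences. Rrm2, the regulated subunit of ribonucleotide reductase, was between 50.2 and 60.5 FPKM in control tumors (median 53.0) and between 49.8 and 74.6 FPKM in swimming tumors (median 63.8). Swimming 2 to 5 were above every control, while swimming 1 was the lowest of all 12 tumors. For Rrm2 the log2 fold change was 0.20 ± 0.09 (SE; limma p = 0.0408, exact permutation p = 0.0693, adjusted p = 0.889). Its limma p stayed below 0.05 in 4 of 12 fits with a tumor left out. It was between 0.0553 and 0.0958 without control 2, 4, 5 or 6 or without swimming 2, 3, 4 or 5.

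Tyms, thymidylate synthase, was between 6.36 and 8.87 FPKM in control tumors (median 7.70) and between 7.53 and 11.6 FPKM in swimming tumors (median 8.59), with swimming 4 and 5 above every control. Its log2 fold change was 0.19 ± 0.10 (SE; limma p = 0.0848, exact permutation p = 0.115, adjusted p = 0.889), and 0.12 without swimming 5. Pcna was between 141 and 187 FPKM in control tumors (median 174) and between 158 and 198 FPKM in swimming tumors (median 174). The highest values were those of swimming 4 and 5, and the medians of the groups were nearly equal. Pcna had a log2 fold change of 0.07 (95% interval -0.11 to 0.24; limma p = 0.434, exact permutation p = 0.448, adjusted p = 0.944), and 0.02 without control 4. The pseudogene Pcna-ps2, 99.2% identical over 781 bases, was listed at 9.09 FPKM, so reads may have been divided between them. Tk1, thymidine kinase, had the widest spread of the 43 genes, with a coefficient of variation of 19.9% and a log2 fold change of -0.001.

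Other genes of mitosis showed the same tumors at the top. Of 55 mitosis genes outside the 43, 52 had a fold change above 0 (94.5%, beside 51.7% of all genes), with a median of 0.16. At an unadjusted p below 0.05, 16 were higher (29.1%) and 0 lower, beside 3.11% and 2.46% of all genes. The 16 became 29 without swimming 1, 10 without control 6, 6 without control 4, 5 without swimming 5, and 4 without control 5 or without swimming 4. In the same 6 fits, in this order, 4.54%, 2.62%, 2.67%, 2.31%, 2.11% and 2.67% of all genes were higher. Swimming 4 and 5 were both above every control for 48 of the 55 (87.3%, beside 7.47% of all genes).

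The smallest p among them belonged to Spc25, a subunit of the NDC80 kinetochore complex, which was between 11.5 and 15.9 FPKM in control tumors (median 14.4) and between 15.5 and 19.5 FPKM in swimming tumors (median 16.7). All 6 swimming tumors were above the control median and 4 above every control. Spc25 had a log2 fold change of 0.24 ± 0.08 (SE; limma p = 0.00838, exact permutation p = 0.013, adjusted p = 0.889). Cdca2, a chromatin phosphatase subunit, had 0.20, the chromokinesin Kif4 0.19 and the centrosomal kinase Nek2 0.20. Exons of Kif4 share 832 bases with Pdzd11 on the opposite strand, listed at 18.8 FPKM on average beside 13.1 FPKM for Kif4. For Hjurp, the chaperone that deposits CENP-A, the log2 fold change was 0.27, and for Melk, Ckap2l and Ccnf it was 0.21, 0.21 and 0.27. The last 4 lost an unadjusted p below 0.05 in 3 to 5 of 12 fits with a tumor left out, control 5 and swimming 4 being among those tumors for each of them. The largest p was 0.0537 for Hjurp, 0.0686 for Melk, 0.0764 for Ckap2l and 0.0776 for Ccnf in limma's test.

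Of 48 other replication genes, 40 had a fold change above 0 (83.3%, beside 51.7% of all genes), with a median of 0.08. At an unadjusted p below 0.05, 1 was higher (2.08%, beside 3.11% of all genes). It was Rfc3, a subunit of the clamp loader, with 0.12 (limma p = 0.0386, exact permutation p = 0.0368), whose limma p was 0.0521 to 0.0905 without control 1, 4 or 5 or swimming 1, 2, 3 or 5. Of 66 replication-dependent histone genes, 58 were tested, 38 had a fold change above 0 (65.5%, beside 51.7% of all genes) and 6 were higher at an unadjusted p below 0.05 (10.3%, beside 3.11% of all genes). The 6 were Hist1h2ad, Hist1h2ap, Hist1h3g, Hist1h3i, Hist1h2bn and Hist1h4d. Each averaged below 1 FPKM, as did 53 of the 66, and only Hist1h2ad, Hist1h2ap and Hist1h3g kept an unadjusted p below 0.05 with any 1 tumor left out. Near-identical copies of histone genes may make such values uncertain, which was not tested.

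Among 13 other G1 cyclin, kinase and E2F genes the median was 0.04, and 2 were higher (15.4%, beside 3.11% of all genes) and 1 lower (7.69%, beside 2.46%) at an unadjusted p below 0.05. E2f2, an E2F activator, was between 3.02 and 4.21 FPKM in control tumors (median 3.52) and between 4.27 and 5.48 FPKM in swimming tumors (median 4.53). The groups did not overlap, which was so for 0.147% of all genes. The log2 fold change of E2f2 was 0.31 ± 0.08 (SE; limma p = 0.00187, adjusted p = 0.889), and its exact permutation p of 0.00216 is the smallest that 6 against 6 tumors allow. Cdk6, a G1 kinase, had a log2 fold change of 0.19 (limma p = 0.0142, exact permutation p = 0.0216).

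Myc, the gene of a transcription factor that promotes growth, was the gene that was lower. It was between 26.6 and 41.0 FPKM in control tumors (median 31.6) and between 20.6 and 30.5 FPKM in swimming tumors (median 26.8). All 6 swimming tumors lay below the control median, and the groups overlapped through control 3 at 26.6 FPKM. The log2 fold change of Myc was -0.35 ± 0.12 (SE; limma p = 0.0104, exact permutation p = 0.0238, adjusted p = 0.889). Its highest tumor was control 1 and its lowest swimming 5. Without these 2 tumors together, an alternative chosen after seeing the data, the log2 fold change of Myc was -0.23 and that of Cdk6 was 0.14, and neither kept an unadjusted p below 0.05 in limma.

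Of 22 genes that restrain the cycle, 18 had a fold change above 0, with a median of 0.07 (81.8% above 0, beside 51.7% of all genes), and 3 were higher at an unadjusted p below 0.05 (13.6%, beside 3.11% of all genes). They were the pocket protein gene Rbl1 (0.19), the atypical cyclin gene Ccng2 (0.31) and the CDK inhibitor gene Cdkn2c (0.24). Without control 5, control 6 or swimming 5 the limma p of Rbl1 was 0.0506, 0.0501 and 0.0527. That of Ccng2 stayed below 0.05 only without control 1, 3 or 6 or swimming 5, and reached 0.0836 without control 4. For Cdkn2c it was 0.0505 to 0.0841 without control 4, 5 or 6 or swimming 2, 4 or 5. The p21 gene Cdkn1a was between 85.2 and 129 FPKM in control tumors and between 74.2 and 123 FPKM in swimming tumors, with a log2 fold change of -0.09 (exact permutation p = 0.558). Cdkn1b, the p27 gene, had 0.001, with a sign that turned in 8 alternative settings. Cdkn2a, which encodes p16 and ARF, was weakly expressed, at 0.383 to 1.03 FPKM in control and 0.399 to 1.38 FPKM in swimming tumors.

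Markers of other cells in the tumor differed between the tumors that set these values. Summed over 8 fibroblast markers, the level was 824, 454, 248, 248, 194 and 336 FPKM in control 1 to 6 and 268, 230.5, 482, 362, 795 and 294 FPKM in swimming 1 to 6. It was thus highest in control 1 and swimming 5. Without those 2 tumors together, the median log2 fold change was 0.11 for the G2 and mitosis genes and 0.03 for the G1/S and S phase genes, and Mki67 remained the only one of the 43 with an unadjusted p below 0.05. Of the 8 markers, 0 had an unadjusted p below 0.05, Col1a2 was the most abundant at 141 FPKM, and 0 were below 1 FPKM on average.

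The 5 erythroid markers summed to 1239 FPKM in swimming 4, to 152 to 363 FPKM in the other swimming tumors and to 248 to 600.5 FPKM in control tumors. The most abundant was Hbb-bs at 140.5 FPKM, and 0 of the 5 passed an unadjusted p below 0.05. The 8 skeletal muscle markers summed to 259 FPKM in swimming 5 and 61.9 FPKM in swimming 4, beside 1.14 to 171 FPKM in the other swimming tumors and 1.71 to 183 FPKM in control tumors. The 8 macrophage markers were highest in swimming 5 at 1170 FPKM, with 880 FPKM in swimming 4 and 670 to 1010 FPKM in control tumors. Acta1 at 34.2 FPKM and C1qa at 379 FPKM were the most abundant of these lists, and 0 of their 16 genes had an unadjusted p below 0.05. Their part in the result was not tested.

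Among the marker lists examined, genes with an unadjusted p below 0.05 were found in that of T and NK cells. The 10 T and NK cell markers summed to 26.0, 27.4, 39.6, 40.6, 19.3 and 31.4 FPKM in control 1 to 6 and to 14.0, 34.0, 54.3, 31.1, 41.8 and 43.4 FPKM in swimming 1 to 6. By this sum, to which Gzmb and Prf1 add most, swimming 3 was the highest, swimming 1 the lowest and swimming 4 inside the range of the controls. Weighting the 10 genes equally, as the mean log2 value after centring each gene, gave another order. In swimming 1 to 6 it was -0.41, 0.15, 0.23, 0.11, 0.41 and 0.32, so that 5 of the 6 were above every control (at most 0.09), swimming 4 being the lowest of these 5. The lowest of all tumors was control 5 at -0.43. At an unadjusted p below 0.05, 4 of the 10 were higher in the swimming tumors, Cd3d, Cd3g, Cd8a and Trac (40.0%, beside 3.11% of all genes), and 0 were lower (beside 2.46%). For Cd3g, Cd8a and Trac, swimming 2, 4, 5 and 6 were each above every control. The summed G2 and mitosis levels of these tumors were 959 and 940 FPKM in swimming 4 and 5, above every control. In swimming 2 and 6 they were 739 and 724 FPKM, inside the range of the controls. The most abundant was Gzmb at 14.9 FPKM, and 4 of the 10 were below 1 FPKM on average. Their part in the result was not tested.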

How the data were processed

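The authors sequenced RNA of 6 control and 6 swimming tumors after removal of ribosomal RNA. Reads were mapped with HISAT2 2.0.5 and quantified with StringTie 1.3.3, and the authors deposited FPKM values per gene. The submitters' processing notes name hg38 and GRCm38, and the identifiers are of mouse genes. Each tumor's group and number are those of its label. Symbols and overlaps were matched by identifier to GENCODE M21, which names 30542 of 30630 genes. Near-identical copies were searched with BLAST 2.17.0 (at least 95% identity over 300 bases).

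Genes that reached 0.1 FPKM in 6 or more tumors were compared on log2(FPKM + 1) with limma 3.58.1 in R 4.3.3 (lmFit, eBayes with trend, no covariate) and Benjamini-Hochberg adjustment over 19018 genes. For single genes a two-sided exact permutation test used all 924 ways to divide 12 tumors into 6 and 6. P-values set the difference between the groups against the spread between tumors of different mice. The fit was tested on simulated data. Tables were joined with Python 3.11.15, pandas 2.3.3 and scipy 1.17.1, and plots were drawn with matplotlib 3.10.9.

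FPKM holds no read numbers, so the depth in reads is unknown and counting error could not be computed. Depth relative to control 1, estimated from the most frequent ratio of weakly expressed genes, was 0.694 in control 2 and 0.871 to 0.973 in the other tumors.

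The 43 genes and all gene lists were chosen with earlier results of these data known. Described in full were Mki67, Pcna, Ccnb1, Ccne1, Ccnd1, the most and least abundant gene of each group and, per group, 3 genes of smallest p. From the other lists, genes with an unadjusted p below 0.05 were named (the 8 with the smallest p where there were more), together with Cdkn1a, Cdkn1b, Cdkn2a and Myc. Alternatives were pseudocounts of 0.1 and 0.01, no filter, a filter of 1 FPKM, TMM scaling (by a trimmed mean of ratios), quantile normalization, sample weights, eBayes with no trend, a replicate block, and dropping 1 tumor at a time. Leaving out 2 tumors together was added after seeing the data. Lists of markers of B cells, neutrophils, endothelial cells and adipocytes were also examined. Of these lists, 2 of 5, 4 of 5, 7 of 7 and 3 of 5 genes passed the filter and were tested. Among the genes tested, 0 had an unadjusted p below 0.05 in either direction.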

Additional observations from a re-analysis of the deposited data

Results flagged for a closer look

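Each of the 43 genes, the 24 other genes named by rule and the summed levels of both gene groups were searched for a tumor that stood apart from the other 5 of its group by Dixon's ratio. Of 138 groups of values examined, 3 held such a tumor, where chance alone gives about 1 in 20 groups, here 6.9. Ccne1 was 13.8 FPKM in control 1, while the other control tumors reached at most 11.3 FPKM. Cdc20 was 66.0 FPKM in control 5, below the other control tumors, which were at 78.6 FPKM or more. Cenpe was 11.1 FPKM in control 5, where the other control tumors were at 13.5 FPKM or more.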

How the results depend on the processing

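No gene of the 43 and no gene at all had an adjusted p below 0.05 in limma with all 12 tumors (0 of 19018, with 591 higher and 467 lower at an unadjusted p below 0.05). Sample weights gave 1 such gene, Txndc5, and leaving out each tumor gave 0 to 3, with 3 without control 4 and 2 without swimming 1. Of the 43 genes, 3 had an unadjusted p below 0.05, and with a tumor left out this was 1 to 18. It was 18 without swimming 1, 6 without control 1, 5 without swimming 2 or swimming 6, and 1 without control 4, swimming 4 or swimming 5. The share of all genes that were higher ranged from 2.11% without control 5 to 4.54% without swimming 1, beside 3.11% with all 12 tumors. Without control 1 and swimming 5 together the count among the 43 was 1, beside 2.73% of all genes higher. The cause was not tested. The medians of both gene groups stayed above 0 in all alternatives run. With a tumor left out they ranged from 0.013 to 0.086 for the G1/S and S phase genes and from 0.102 to 0.207 for the G2 and mitosis genes. Of 785 values under the alternatives of the 36 genes that the naming rule gave in full or from the other lists, 777 kept their sign. This leaves out the other 31 of the 43 genes, among which the sign turned in at least 1 alternative for E2f1, Cdt1, Mcm2, Mcm3, Mcm6, Tk1, Cdk1, Foxm1 and Prc1. The 8 values that turned were all of Cdkn1b. They were -0.002 with quantile normalization, -0.007 with TMM scaling, -0.017 with sample weights and -0.03 without control 1 and swimming 5 together. With a tumor left out, they were -0.037 without control 1, -0.065 without control 4, -0.011 without swimming 2 and -0.014 without swimming 6. In the other fits with a tumor left out Cdkn1b kept its sign, and its highest value was 0.063 without control 5.

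The numbers 1 to 6 occur in both groups, but the tumors are from different mice. The correlation of the deviations of same-numbered tumors was -0.32 to 0.00588, with a mean of -0.12, beside 0.0246 for tumors of other numbers. For 0 of the 6 numbers did the 2 tumors correlate best with each other. These values gave no sign of pairing by number. With the replicate block, 1 of the 43 genes (Mki67) and 5 of the 55 other mitosis genes had an unadjusted p below 0.05, in place of 3 and 16. Of all genes, 2.37% were higher at this threshold with the block, in place of 3.11%.

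Without read numbers, weakly expressed genes such as the histone genes and Cdkn2a have a counting error that cannot be given. The estimated relative depth was lowest in control 2. With 6 tumors per group and 19018 genes, differences of the size seen here did not pass the adjustment.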
